A study of Mus musculus with 12 samples.

Results

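The urokinase system of lung metastasis explants was described here through 5 genes listed by symbol: Plau, Plaur, Plat, Serpine2 and Serpinb2. Plau was chosen by its measured fall with phenformin in these arrays, so its values are given as a description and only its difference between the lines in water was tested. The platform annotation paired a probe set with 4 of the 5 symbols, 1 probe set each, out of 19505 genes measured. Serpine2, a serpin that inhibits thrombin, urokinase and plasmin, was not analysed here.

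Urokinase and tissue-type plasminogen activator are serine proteases that cut plasminogen into plasmin, a protease that digests fibrin and matrix proteins. Urokinase acts at the cell surface, where the receptor uPAR holds it, while tissue-type activator is best known for dissolving clots. Inhibitors of the serpin family trap both activators, and the system is known in mammary tumours for its link with invasion.

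The cells came from lung metastases that formed after NMuMG-ErbB2 cells, a mouse mammary epithelial line carrying ErbB2, had been injected into the tail vein. The injected cells overexpressed PGC-1alpha, a transcriptional coactivator known for mitochondrial biogenesis, or were the VC (control) line. The 4 groups of 3 arrays were PGC-1alpha explants in phenformin, PGC-1alpha explants in water, VC explants in phenformin and VC explants in water. Phenformin, a biguanide that inhibits respiratory complex I, was given at 100 uM for 4 days, and the water groups were kept for the same 4 days. All 4 groups share the NMuMG-ErbB2 background and passage through the lung. The labels do not give the strain or age of the mice, what drives the PGC-1alpha construct, whether each line is a clone, or whether samples of a group came from separate mice or cultures. P-values therefore cover no more than sample-to-sample spread, part of which may be technical, and a difference between the lines cannot be told apart from any other difference between their metastases.

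Values are the deposited ones, read as log2, with errors of group means as SD and errors of differences as SE. The 95th percentile of each array's negative control probe sets, 7.72 to 7.99, served as background. The explants carried epithelial transcripts: 5 of 10 mammary epithelial markers exceeded background in all 12 arrays, namely Krt8, Krt18, Krt19, Cdh1 and Erbb2, whereas Epcam did not exceed it in any. Ppargc1a, which encodes PGC-1alpha, lay between 8.06 and 8.37 in the 6 PGC-1alpha arrays and between 6.97 and 7.29 in the 6 VC arrays. Most markers of other cells were within background in all 12 arrays, including Ptprc of leukocytes, Pecam1 and Kdr of endothelium and Sftpc of lung epithelium. Col1a1 of fibroblasts exceeded it in 1 of 3 VC water arrays. Of the fibroblast, leukocyte, endothelial and lung epithelial markers, 0 of 8, 1 of 8, 1 of 7 and 0 of 6 exceeded background in all 12 arrays. The leukocyte gene above background was Cd14 and the endothelial one Flt1. In bulk samples, fewer cells of a type and less RNA per cell cannot be told apart.

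Promoter windows are shown for Serpinb2, the member that differed between the lines in both treatments, and for Plaur, whose level passed no test in any comparison. The windows run from 250 bases before to 50 after a RefSeq transcript start on build GRCm38.p6, on the plus strand, and capitals mark the motif letters found. The Serpinb2 window is chr1:107511173-107511472 and the Plaur window is chr7:24462233-24462532.
Serpinb2: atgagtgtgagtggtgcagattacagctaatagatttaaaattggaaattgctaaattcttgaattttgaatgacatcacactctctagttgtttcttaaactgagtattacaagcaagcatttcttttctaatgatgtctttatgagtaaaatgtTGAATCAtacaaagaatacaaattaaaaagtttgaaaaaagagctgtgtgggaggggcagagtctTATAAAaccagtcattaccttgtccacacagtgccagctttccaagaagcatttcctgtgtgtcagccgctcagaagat
Plaur: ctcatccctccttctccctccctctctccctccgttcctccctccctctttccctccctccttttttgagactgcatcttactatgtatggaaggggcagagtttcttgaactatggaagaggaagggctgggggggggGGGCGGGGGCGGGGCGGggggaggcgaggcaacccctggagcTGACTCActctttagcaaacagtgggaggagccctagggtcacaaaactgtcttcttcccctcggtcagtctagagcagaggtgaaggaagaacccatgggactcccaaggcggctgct

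The motifs searched on both strands were the AP-1 letters TGANTCA, the GC box GGGCGG, the TATA letters TATAAA and the TEAD letters CATTCC. The Serpinb2 window held TGANTCA once, its first base 94 bases before the start, and TATAAA once, 29 bases before it. The Plaur window held TGANTCA once, 69 bases before the start, and GGGCGG 3 times, of which the second and the third overlap. Neither window held CATTCC. Of 32817 windows of 300 bases in the table, 7.81% held TGANTCA, 35.6% GGGCGG, 13.6% TATAAA and 14.7% CATTCC. The Serpinb2 window was 35.3% G or C and the Plaur window 59.3%. A second RefSeq start of Serpinb2 lies close by, and its window covers the same TGANTCA and TATAAA letters. A match of letters describes the sequence and does not show binding.

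Plau, the gene of urokinase, was lowest in PGC-1alpha explants under phenformin. Its log2 values were 7.04, 6.77 and 6.87 in PGC-1alpha explants in phenformin, against 7.49, 7.55 and 7.87 in PGC-1alpha explants in water. In VC explants it had 7.53, 7.84 and 7.55 in phenformin, against 7.89, 7.71 and 8.01 in water. The 3 arrays of PGC-1alpha explants in phenformin lay below all 9 others, and the other 3 groups overlapped one another. From high to low the group means were 7.87 ± 0.15 in VC water, 7.64 ± 0.21 in PGC-1alpha water, 7.64 ± 0.17 in VC phenformin and 6.89 ± 0.14 in PGC-1alpha phenformin (SD, n = 3 each). Only the lowest group was separated from its neighbour, by 0.75.

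The Plau difference of phenformin minus water was -0.74 ± 0.14 (SE) in PGC-1alpha explants and -0.23 ± 0.14 in VC explants, with no test because the fall chose the gene. The difference between these responses was -0.52 ± 0.19, and that of PGC-1alpha minus VC explants in phenformin was -0.75 ± 0.14. These untested differences share arrays with the choice of the gene. In water, PGC-1alpha explants differed from VC explants by -0.23 ± 0.14 (limma adjusted p = 0.576), with a 95% interval of -0.53 to 0.06.

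The Plau signal was close to background. It exceeded the negative control percentile in 0 of 3 and 1 of 3 arrays of PGC-1alpha explants in phenformin and in water, and in 0 of 3 and 2 of 3 arrays of VC explants in phenformin and in water. No fold change is given for comparisons with a phenformin group, because Plau exceeded background in none of those arrays and the bound it allows is under 1 or both groups were dim. The negative controls themselves were brighter under phenformin, with medians of 5.09 to 5.2 in the 6 phenformin arrays and 4.69 to 5.02 in the 6 water arrays. Their part in the Plau values was not tested. When each array's positive minus negative control signal, the control gap, entered the fit as a covariate, the Plau difference of phenformin minus water was -0.57 ± 0.22 in PGC-1alpha explants and 0 ± 0.26 in VC explants. The gap ran from 3.92 to 4.08 in the phenformin arrays and from 4.11 to 4.31 in the water arrays, so the treatments did not overlap in it and its part cannot be told apart from that of phenformin.

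**Figure D1:**
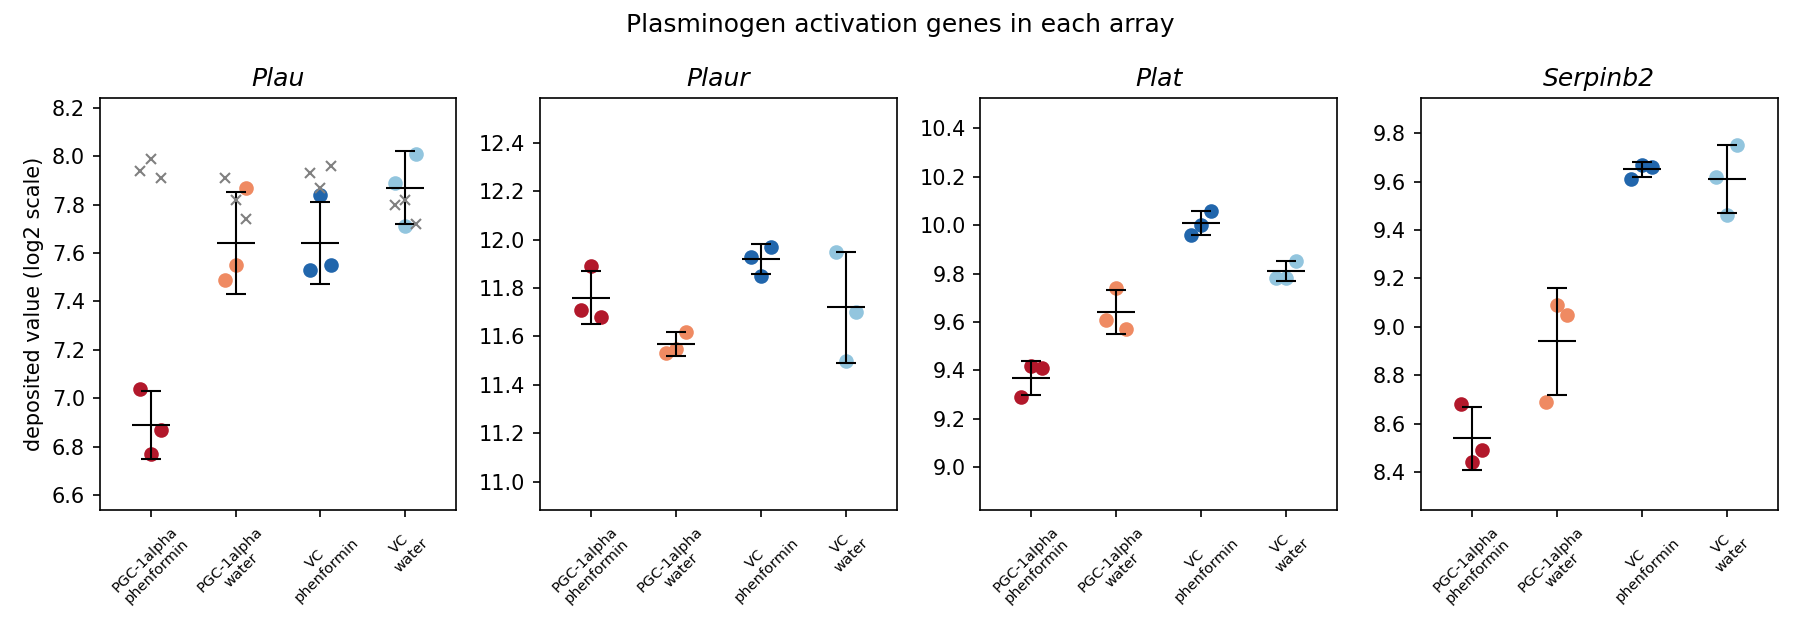
Deposited log2 values of Plau, Plaur, Plat and Serpinb2 in each array of PGC-1alpha explants in phenformin and in water and of VC explants in phenformin and in water. Coloured points are arrays, bars are the mean ± SD of 3 arrays, grey crosses in the Plau panel are the negative control percentile of each array, and every panel spans the same height. Plau lies at 6.77 to 7.04 in PGC-1alpha explants in phenformin and at 7.49 or above elsewhere, while Serpinb2 is lower in all 6 PGC-1alpha arrays than in all 6 VC arrays.

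Plaur, which encodes the urokinase receptor uPAR, was far above background in all 12 arrays and varied little. It had 11.71, 11.89 and 11.68 in PGC-1alpha explants in phenformin, against 11.53, 11.55 and 11.62 in water. In VC explants it had 11.93, 11.85 and 11.97 in phenformin, against 11.95, 11.50 and 11.70 in water. The phenformin arrays lay above the water arrays in PGC-1alpha explants and overlapped them in VC explants. The group means were 11.92 ± 0.06 in VC phenformin, 11.76 ± 0.11 in PGC-1alpha phenformin, 11.72 ± 0.23 in VC water and 11.57 ± 0.05 in PGC-1alpha water (SD, n = 3 each), and each neighbour in this order overlapped the next.

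No comparison of Plaur passed the test. Phenformin minus water was 0.19 ± 0.12 in PGC-1alpha explants (limma adjusted p = 0.6) and 0.20 ± 0.12 in VC explants (adjusted p = 0.424). The 95% intervals ran from -0.07 to 0.45 and from -0.06 to 0.46. PGC-1alpha minus VC explants was -0.16 ± 0.12 in phenformin (interval -0.42 to 0.10) and -0.15 ± 0.12 in water (interval -0.41 to 0.11). The difference between the phenformin responses was -0.01 ± 0.17, with an interval of -0.38 to 0.36.

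Plat, the gene of tissue-type plasminogen activator, was lower in PGC-1alpha than in VC explants under phenformin. It had 9.29, 9.42 and 9.41 in PGC-1alpha explants in phenformin, against 9.96, 10.00 and 10.06 in VC explants in phenformin. In water it had 9.61, 9.74 and 9.57 in PGC-1alpha explants, against 9.78, 9.78 and 9.85 in VC explants. All 6 PGC-1alpha arrays lay below all 6 VC arrays, and the 4 groups did not overlap. Their order from high to low was VC phenformin, 10.01 ± 0.05, then VC water, 9.81 ± 0.04, PGC-1alpha water, 9.64 ± 0.09, and PGC-1alpha phenformin, 9.37 ± 0.07 (SD, n = 3 each).

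Plat was 1.55-fold lower in PGC-1alpha than in VC explants under phenformin (log2 difference -0.64 ± 0.10, limma adjusted p = 0.00173). The difference in water was -0.16 ± 0.10 and did not pass (adjusted p = 0.578, 95% interval -0.37 to 0.04). Phenformin minus water was -0.27 ± 0.10 in PGC-1alpha explants (adjusted p = 0.301) and 0.20 ± 0.10 in VC explants (adjusted p = 0.316), so neither change passed. The 2 responses had opposite signs, and their difference of -0.47 ± 0.14 did not pass over all genes (limma adjusted p = 0.928).

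Serpinb2, which encodes the intracellular and secreted urokinase inhibitor PAI-2, was lower in PGC-1alpha explants in both treatments. Under phenformin it had 8.68, 8.44 and 8.49 in PGC-1alpha explants, against 9.61, 9.67 and 9.66 in VC explants. In water it had 8.69, 9.09 and 9.05 in PGC-1alpha explants, against 9.62, 9.46 and 9.75 in VC explants. The lines did not overlap in either treatment. Within PGC-1alpha explants the phenformin arrays lay just below the water arrays, by 0.01 at the nearest pair. The means were 9.65 ± 0.03 in VC phenformin and 9.61 ± 0.14 in VC water, which overlapped, then 8.94 ± 0.22 in PGC-1alpha water and 8.54 ± 0.13 in PGC-1alpha phenformin (SD, n = 3 each).

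Serpinb2 was 2.16-fold lower in PGC-1alpha explants under phenformin (-1.11 ± 0.13, limma adjusted p = 0.000168) and 1.59-fold lower in water (-0.67 ± 0.13, adjusted p = 0.0132). The call in water was lost when PGC-1alpha water replicate 1 was left out (-0.54, adjusted p = 0.0602), in a fit of the 2 water groups alone (adjusted p = 0.119), and with the control gap as a covariate (adjusted p = 0.0893). Phenformin minus water was -0.41 ± 0.13 in PGC-1alpha explants (adjusted p = 0.232) and 0.04 ± 0.13 in VC explants (adjusted p = 0.908), and the difference between them was -0.45 ± 0.18 (adjusted p = 0.928).

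Between the lines under phenformin, 2 of the 3 members tested were called, both lower in PGC-1alpha explants. There limma called 4.01% of all genes, 0.856% as higher and 3.16% as lower. A fit of the 7640 genes above background in 3 or more arrays called 1021 of them, 154 higher and 867 lower. In water, 1 of the 4 members was called, where 2% of all genes were called, 0.636% as higher and 1.37% as lower. For phenformin against water, 0 of 3 members tested were called in either line. In PGC-1alpha explants limma called 0.195% of all genes, 0.133% as higher and 0.0615% as lower. In VC explants it called 1.2%, with 0.918% higher and 0.282% lower. It called 0% of genes for the difference between the responses. At an unadjusted limma p under 0.05 that last comparison held 1018 of 19505 genes, about the share such a threshold passes when no gene differs. The other comparisons held 2219 to 3269. Between the lines under phenformin the groups did not overlap for 2 of the 3 members other than Plau, both lower in PGC-1alpha explants, against 27.5% of all genes (11.1% higher and 16.4% lower). In water they did not overlap for 2 of 4, Plat and Serpinb2, both lower, against 14.1% (6.53% higher and 7.61% lower). For phenformin against water in PGC-1alpha explants they did not overlap for 3 of the 3 members other than Plau, with Plaur higher and Plat and Serpinb2 lower, against 19.6% (8.93% higher and 10.7% lower). In VC explants they did not overlap for 1 of these 3, Plat, which was higher, against 19.4% (11.5% higher and 7.86% lower). These comparisons share groups of arrays, so their values are not independent of each other.

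**Figure D2:**
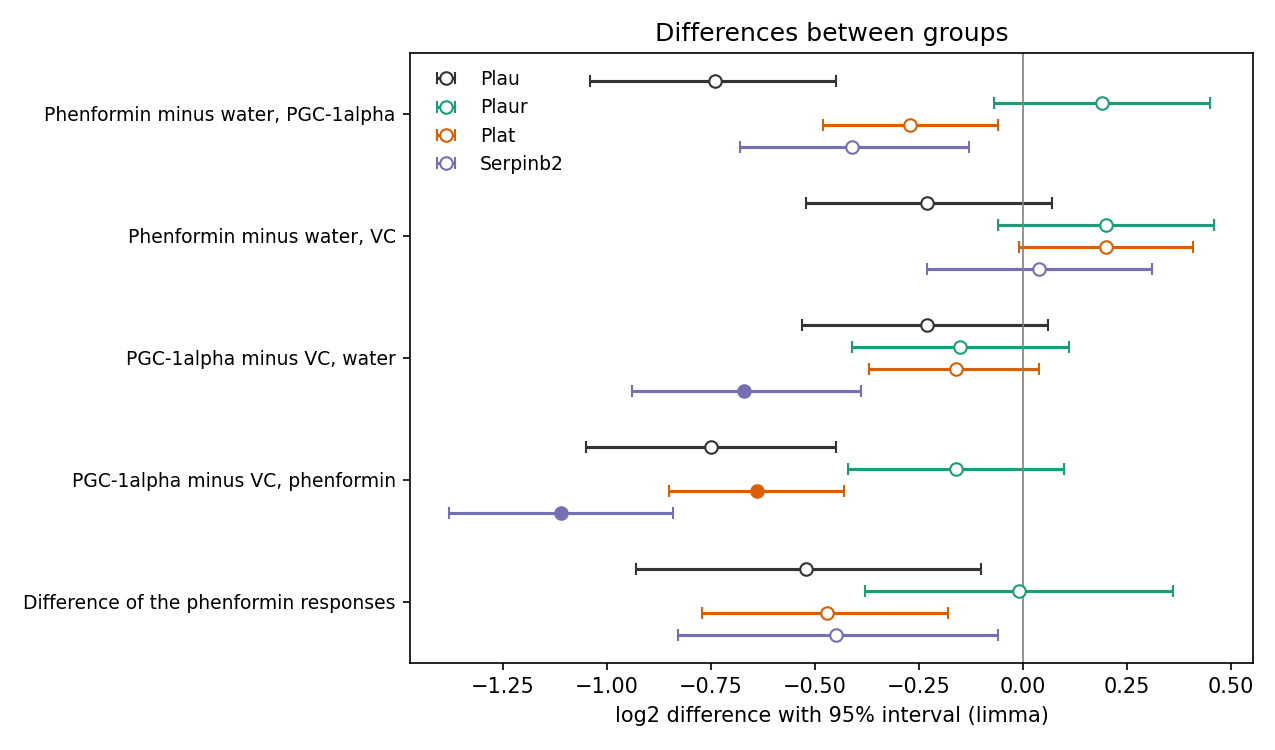
Log2 differences of Plau, Plaur, Plat and Serpinb2 in 5 comparisons, with 95% intervals from limma. For Plau outside the comparison of the lines in water, the intervals share arrays with the choice of the gene and are not to be read as tests. Filled points passed an adjusted p of 0.05 over all genes, and open points did not or, for Plau outside the comparison of the lines in water, were not tested. The filled points are Serpinb2 in water (-0.67) and Plat (-0.64) and Serpinb2 (-1.11) in phenformin, all for PGC-1alpha minus VC.

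The substrate and its docking proteins were listed apart, as a fixed set of 7 genes of which 4 were measured. Plg, which encodes plasminogen and is made mainly by liver, was within background in all 12 arrays, with group means of 4.38 to 4.83. Plgrkt, a plasminogen receptor of the cell surface, had means of 9.23 ± 0.26 in PGC-1alpha phenformin, 8.89 ± 0.10 in PGC-1alpha water, 8.81 ± 0.25 in VC phenformin and 8.66 ± 0.17 in VC water (SD, n = 3 each). It did not pass between the lines under phenformin (0.42 ± 0.16, limma adjusted p = 0.179). S100a10 and Anxa2, whose proteins form a complex that binds plasminogen and tissue-type activator, exceeded background in every array. No gene of this set passed in any of the 5 comparisons. Of 9 measured proteases that can activate plasminogen or pro-urokinase, none passed either, and St14, the gene of matriptase, was within background in all 12 arrays.

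Other inhibitors were represented by 14 measured genes of 16, and 1 of them fell in PGC-1alpha explants in each treatment. That gene was Serpinb5, which encodes maspin, a serpin first studied in mammary epithelium. It averaged 7.86 in PGC-1alpha and 8.88 in VC explants under phenformin (2.03-fold lower, -1.02 ± 0.16, limma adjusted p = 0.00264). In water it averaged 8.22 in PGC-1alpha and 9.06 in VC explants (1.78-fold lower, -0.84 ± 0.16, adjusted p = 0.0149). It exceeded background in 1 of 3 PGC-1alpha arrays under phenformin and in all 3 of each other group. The set's median difference was -0.08 under phenformin and -0.11 in water, against -0.01 and 0 over all genes. Of all genes, 3.16% were called lower under phenformin and 1.37% in water. The Serpinb5 call in water was lost when replicate 1 or 3 of PGC-1alpha water or replicate 3 of VC water was left out (highest limma adjusted p = 0.0706). Counting other changes to the fit, it was lost in 6 of 20 alternatives (highest adjusted p = 0.105).

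Among 17 genes of uPAR partners and clearance receptors of the urokinase complex, 4 were lower in PGC-1alpha explants under phenformin and 1 in water. None was higher, and of all genes 3.16% were called lower under phenformin and 1.37% in water. Lrp1, the endocytic receptor that removes urokinase bound to its inhibitors, was 1.99-fold lower under phenformin (-0.99 ± 0.12, limma adjusted p = 0.000287) and 1.66-fold lower in water (-0.73 ± 0.12, adjusted p = 0.00446). The integrin subunits Itgb3 (-0.71 ± 0.14) and Itgb5 (-0.46 ± 0.12), which pair with the vitronectin-binding alpha-v chain, and Igf2r (-0.47 ± 0.12), the mannose 6-phosphate receptor that binds uPAR, were the other 3. The Itgb5 call was lost without any 1 of 8 arrays and the Igf2r call without any 1 of 10. Leaving out 1 array at a time gave 2 to 5 genes lower under phenformin and 1 to 3 in water. The set's median was -0.27 under phenformin and -0.18 in water. With phenformin against water, Vldlr, a lipoprotein receptor that also takes up protease and serpin complexes, rose 1.56-fold in PGC-1alpha explants (0.64 ± 0.11) and 1.64-fold in VC explants (0.72 ± 0.11). Igf2r rose 1.56-fold in VC explants (0.64 ± 0.12), and its rise of 1.43-fold in PGC-1alpha explants did not pass. The Vldlr call in PGC-1alpha explants was lost without any 1 of 9 arrays, and that in VC explants without replicate 2 of the VC phenformin group. The Igf2r call was lost without replicate 2 of the VC water group or replicates 2 or 3 of the VC phenformin group.

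Matrix metalloproteinases, several of which plasmin can activate, and their inhibitors had 17 measured genes. In PGC-1alpha explants 5 of them were lower under phenformin, and 3 were lower and 1 higher in water. Of all genes, 3.16% were called lower under phenformin, and 1.37% lower and 0.636% higher in water. The set's median was -0.14 under phenformin and -0.17 in water. Adam8, a membrane metalloproteinase of leukocytes and tumour cells, was 3.65-fold lower under phenformin (-1.87 ± 0.14, limma adjusted p = 5.79e-06). It averaged 7.94 there in PGC-1alpha explants, where 2 of 3 arrays exceeded background, and 9.81 in VC explants, where all 3 did. In water it averaged 7.40 in PGC-1alpha and 9.17 in VC explants, which is at least 2.54-fold lower (-1.77 ± 0.14). Timp1, a secreted inhibitor of these enzymes, was 1.77-fold lower under phenformin (-0.83 ± 0.11) and 1.41-fold lower in water (-0.49 ± 0.11), and its relative Timp2 was 1.33-fold lower under phenformin (-0.41 ± 0.09). The Timp1 call in water was lost without any 1 of 8 arrays, and the Timp2 call without any 1 of 6. Mmp3, stromelysin 1, was lower in phenformin (-0.80 ± 0.15) and in water (-0.78 ± 0.15), Mmp19 was lower in phenformin (-0.61 ± 0.16) and Mmp10 was higher in water (0.86 ± 0.17). These 3 stayed within background in both lines. Mmp19, the fifth by adjusted p, was named after its values were seen, and its call was lost without any 1 of 8 arrays. The Mmp10 call was lost without any 1 of 3. Leaving out 1 array at a time gave 3 to 5 lower under phenformin, and 2 to 3 lower and 0 to 1 higher in water. In VC explants phenformin raised Mmp13, collagenase 3, by 1.63-fold (0.70 ± 0.13) and Adam8 by 1.56-fold (0.64 ± 0.14). These calls were lost without any 1 of 4 arrays for Mmp13 and any 1 of 9 for Adam8. In PGC-1alpha explants Mmp13 averaged 9.87 in phenformin and 9.37 in water, and Adam8 7.94 and 7.40. Both were higher with phenformin there too, but neither passed.

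Factors of the AP-1, ETS and TEAD families were listed because Plau is known as an AP-1 and ETS target. Listed with them were Klf4, Klf6, Yap1 and Wwtr1, and the response genes Ccn1 and Ccn2. Of 22 measured, Jun, an AP-1 subunit, was 1.49-fold lower in PGC-1alpha explants under phenformin (-0.58 ± 0.12, limma adjusted p = 0.0119), and no other factor passed in any comparison. Its call was lost without replicates 2 or 3 of the PGC-1alpha phenformin group or replicate 2 of the VC phenformin group. Ccn2, a secreted matricellular protein and TEAD response gene, was 1.84-fold higher in PGC-1alpha explants under phenformin (0.88 ± 0.11) and 2.09-fold higher in water (1.06 ± 0.11). The set's median between the lines was -0.15 under phenformin and -0.01 in water. Of all genes, 3.16% were called lower and 0.856% higher under phenformin, and 0.636% were called higher in water.

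The Ly6 family, whose fold uPAR shares, had 9 measured genes of 10. Between the lines 1 of them was called lower under phenformin, and 1 lower and 1 higher in water. Of all genes, 3.16% were called lower under phenformin, and 1.37% lower and 0.636% higher in water. The set's median was -0.25 under phenformin and -0.02 in water. Ly6c1 was at least 1.19-fold lower in PGC-1alpha explants under phenformin, at 6.31 against 8.19 in VC explants (-1.89 ± 0.22, limma adjusted p = 0.000222). It was also lower in water within background (-1.32 ± 0.22). Cd59a, a complement inhibitor, was higher in water within background (0.66 ± 0.15), a call lost without any 1 of 10 arrays.

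Of the mammary epithelial markers, 1 of 10 was called higher with phenformin in VC explants, where 0.918% of all genes were called higher. In that comparison 3 of the 10 had positive differences, and the set's median was -0.1. The called marker was Krt19, a keratin, at 11.72 in phenformin and 11.02 in water (1.62-fold, 0.70 ± 0.15, limma adjusted p = 0.0405). Its call was lost without any 1 of 8 arrays. In PGC-1alpha explants Krt19 averaged 11.29 in phenformin and 10.72 in water, which did not pass. Krt7, another keratin, was lower in PGC-1alpha explants within background, at 6.47 against 7.07 in VC explants under phenformin (-0.60 ± 0.14) and 6.33 against 6.99 in water (-0.66 ± 0.14). These calls were lost without any 1 of 2 arrays under phenformin and any 1 of 4 in water. Of the markers for other cells, Flt1 was called lower in PGC-1alpha explants in both treatments and Cd14 under phenformin. Of all genes, 3.16% were called lower under phenformin and 1.37% in water. Under phenformin, 4 of 7 endothelial and 2 of 8 leukocyte markers were higher in PGC-1alpha explants, with set medians of 0.2 and -0.13. In water, 3 of 7 and 7 of 8 were higher, with medians of -0.01 and 0.11. Flt1 averaged 9.37 in PGC-1alpha and 9.84 in VC explants under phenformin, and 9.33 in PGC-1alpha and 9.89 in VC explants in water, both past the threshold in limma. The call under phenformin was lost without any 1 of 10 arrays and that in water without any 1 of 3. Cd14 averaged 10.77 in PGC-1alpha and 11.18 in VC explants under phenformin, a call lost without any 1 of 7 arrays. The mean level over the 8 leukocyte markers ranged from 5.65 to 5.89 in PGC-1alpha and from 5.82 to 5.90 in VC explants under phenformin. That over the 7 endothelial markers ranged from 5.70 to 5.83 in PGC-1alpha and from 5.57 to 5.84 in VC explants under phenformin, while Ptprc, Pecam1 and Kdr were within background in all arrays. The part of these cells in the differences between the lines was not tested.

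**Figure D3:**
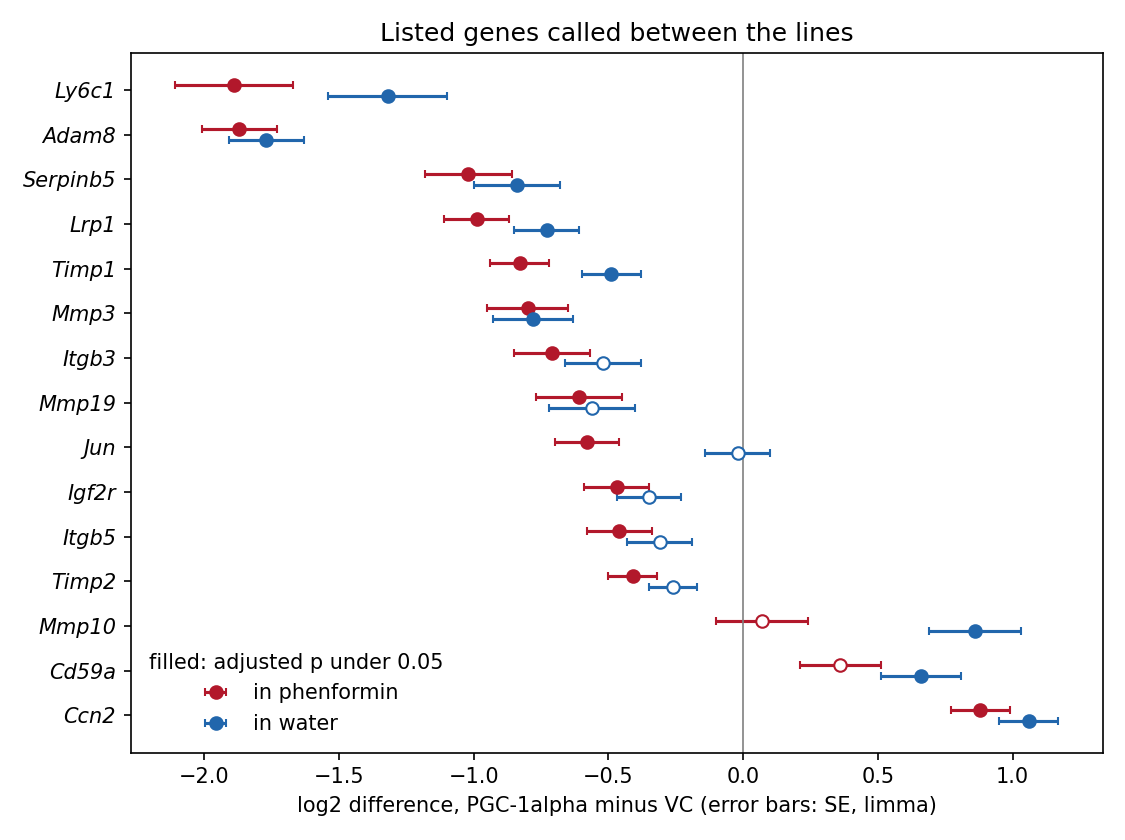
Log2 difference of PGC-1alpha minus VC explants in phenformin (red) and in water (blue) for the 15 listed genes that passed in at least 1 of these 2 comparisons. Error bars are SE from limma and filled points passed an adjusted p of 0.05 over all genes. Adam8 (-1.87 in phenformin, -1.77 in water) and Ly6c1 lie farthest to the left, and Ccn2 (0.88 in phenformin, 1.06 in water) is higher in both.

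The genes whose pattern was most like that of Plau were sought by the root mean square difference between log2 profiles, each centred on its own mean over the 12 arrays. The 5 nearest were Nes, the intermediate filament nestin, at 0.140, Gcnt2, a glycosyltransferase, at 0.172, Smco3 at 0.181, Mcpt8, a mast cell protease family member, at 0.181 and Lmcd1, a LIM domain protein, at 0.188. Nes averaged 8.04 ± 0.01 in PGC-1alpha phenformin, 8.80 ± 0.17 in PGC-1alpha water, 8.86 ± 0.12 in VC phenformin and 9.22 ± 0.10 in VC water (SD, n = 3 each), above background in all 12 arrays. Gcnt2 and Mcpt8 were above background in all 12 arrays as well, and Smco3 and Lmcd1 in none. For Serpinb2 the 3 nearest were Nectin3, an adhesion molecule, at 0.144, Dok1, a signalling adaptor, at 0.147 and Abcc1, a drug efflux transporter, at 0.154. Abcc1 averaged 10.00 ± 0.04 in PGC-1alpha phenformin, 10.26 ± 0.12 in PGC-1alpha water, 10.94 ± 0.02 in VC phenformin and 10.86 ± 0.22 in VC water (SD, n = 3 each). The profiles share their arrays and group structure, so likeness is a description. Plaur and Plat varied too little over the 12 arrays, with SDs of 0.17 and 0.25, for nearest genes to be named.

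**Figure D4:**
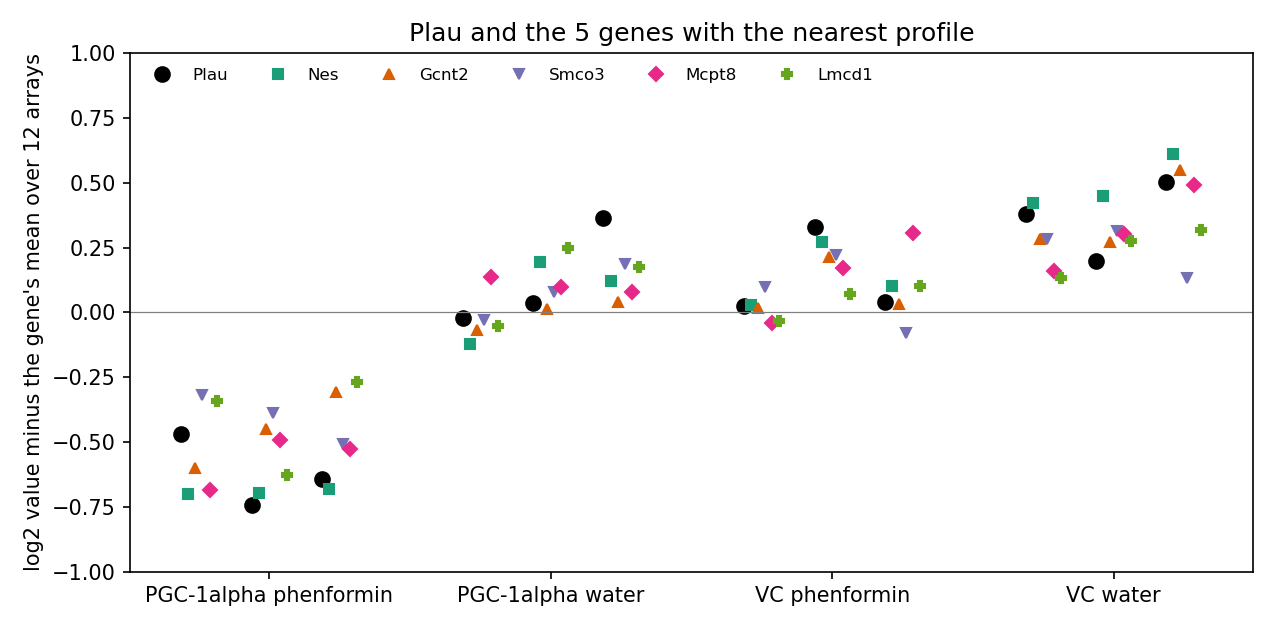
Log2 values of Plau and of Nes, Gcnt2, Smco3, Mcpt8 and Lmcd1, each minus the gene's mean over the 12 arrays, with 1 column of points per array. In all 6 genes the 3 arrays of PGC-1alpha explants in phenformin lie below all 9 others.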

How the data were processed

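The deposited value table holds 28815 probe sets in 12 arrays. The authors' deposited values lie between 1.5 and 13.65, a range taken here to mean a log2 scale, since their normalization is not given in the sources used here. A second table of 12 value columns was not used because its column names match no sample label. Of 19572 probe sets named by 1 symbol in the platform annotation (all matched to RefSeq GRCm38.p6 by Entrez identifier), the highest-mean one per symbol was kept, leaving 19505 genes with no filter on level. limma 3.58.1 in R 4.3.3 fitted 4 group means over 12 arrays (8 residual and 5.84 prior degrees of freedom). P-values, two-sided, were adjusted by Benjamini-Hochberg across the 19505 genes, with 0.05 as threshold. Members and gene lists were chosen with earlier results of these data known, so list counts are descriptions. Plau was left untested wherever phenformin arrays enter, more strictly than planned for the lines under phenformin. Where no array of a group exceeded background, a fold is a lower bound against that percentile, and none is given where both groups lay under it. Named list genes are those called, up to 4 per list and comparison by smallest adjusted p, with Plg and Plgrkt in any case. Some listed genes were not analysed here. Same-numbered arrays did not deviate together: 1 of 18 pairs correlated above 0.1 (range -0.37 to 0.13). Some arrays of different groups and numbers did, up to 0.41 for PGC-1alpha water 1 with VC water 2. The cause of that was not tested. The fit was tested on simulated data. The number of arrays limits the precision.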

Additional observations from a re-analysis of the deposited data

Results flagged for a closer look

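Plat stood out because its phenformin responses had opposite signs in the lines. Neither response passed (limma adjusted p = 0.301 in PGC-1alpha and 0.316 in VC explants). All 3 PGC-1alpha arrays in phenformin lay below all 3 in water, and all 3 VC arrays in phenformin lay above all 3 in water. Of all genes, 19.6% in PGC-1alpha and 19.4% in VC explants also had no overlap, in either direction. The difference between the responses was -0.47 ± 0.14, with a limma adjusted p of 0.928 over all genes.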

How the results depend on the processing

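Of 396 values of the 4 members under alternatives, 392 kept their direction and side of the threshold or lay within the replicate spread. That count includes the untested Plau comparisons and differences not called in the main fit, so it is a description and no support for them. Plat and Serpinb2 under phenformin were called in all 20 alternatives, at -0.66 to -0.55 (highest adjusted p = 0.0157) and -1.18 to -1.03 (highest 0.00184). Serpinb2 in water was -0.67 in a fit of the 2 groups alone and -0.63 with the control gap as a covariate, neither past the threshold, and -0.74 to -0.54 when 1 array was left out. Plau in VC explants was 0 with that covariate, and the cause was not tested. Of 33 called differences of listed and marker genes, 22 were lost under at least 1 alternative, chosen after seeing the data, and none reversed.

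Counts of called genes moved more. With 1 array left out they were 346 to 995 between the lines in phenformin (783 in all), 247 to 349 in water (391), 3 to 77 for phenformin in PGC-1alpha explants (38), 21 to 601 in VC explants (234) and 0 to 1 for the difference of responses (0). Fitting only the groups compared gave 140 between the lines in water and, for phenformin, 15 in PGC-1alpha and 13 in VC explants. The background filter gave 250 and 617 for phenformin in PGC-1alpha and VC explants and 1 for the difference. Plau passed that filter in exactly 3 arrays, all in water. A variance trend gave 626 between the lines in water, 250 for phenformin in PGC-1alpha and 666 in VC explants, and 3 for the difference. The covariate gave 193 between the lines in water and, for phenformin, 1 in PGC-1alpha and 0 in VC explants. Array weights gave 1624 between the lines in phenformin and 409 for phenformin in PGC-1alpha explants. Replicate numbers are only names here: the replicate block gave 10 and 100 for phenformin in PGC-1alpha and VC explants, changed no member's call, and 0 of 12 arrays correlated best with their own number. After quantile normalization 52.1% of calls in VC explants were higher, against 76.5%.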
